A study of Mus musculus with 5 samples.

Results

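Transcripts for 8 genes of late sterol synthesis and sterol handling were followed in mouse embryonic stem (ES) cells with and without Dicer, the ribonuclease that releases mature microRNAs from their precursors. The 8 genes were taken by name, with earlier results of these data known. They were the enzyme genes Cyp51, Tm7sf2, Nsdhl, Hsd17b7, Ebp and Dhcr7, the sterol carrier gene Stard4 and the sterol sensor gene Insig1. All 8 of 8 were measured, each by 1 probe set carrying that symbol alone, among 19938 genes in all. Stard4 and Insig1 act on sterol movement and sensing inside the cell, so none of the 8 encodes a surface receptor for sterol uptake. Stard4 was 1.91-fold and Tm7sf2 1.78-fold lower in Dicer-deficient cells, while Ebp was 1.87-fold higher.

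The data were array signals, read as log2, from total RNA of asynchronous cultures, 3 wild type and 2 Dicer-deficient. The series calls the cultures biological replicates, and how far they were kept apart is not described. Both kinds of ES cell grew without feeders in an equal mixture of serum medium with LIF and serum-free N2B27 medium with the 2i inhibitors. The labels name neither the cell lines nor the deleted part of Dicer, so the effect of Dicer loss and any other difference between the lines cannot be told apart. The arrays are named WT1, WT2 and WT3 for wild type and KO1 and KO2 for Dicer-deficient cells. A further Dicer-deficient culture and cells in early G1 were not analysed here.

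The medians of the arrays ranged from 5.39 to 5.45, and precision is limited throughout by having 5 arrays. Dicer1 itself was lower in Dicer-deficient cells by a log2 change of -1.82 (SE 0.112, limma adjusted p = 0.000129); whether its probe set reads the deleted part is not known. Each of the 8 listed pluripotency markers had a mean signal over 5.41, the median of all probe sets; 2 of them, Esrrb and Tdgf1, were called lower and 0 higher by limma (0 higher at an unadjusted p of 0.05). Averaged over that list the signal was 11.07, 11.03 and 10.89 on the wild-type arrays and 10.97 and 10.77 on the Dicer-deficient arrays. Fibroblast markers averaged 5.02 to 5.24 in wild-type and 5.14 to 5.19 in Dicer-deficient cells, with 0 of 8 called by limma (0 at an unadjusted p of 0.05). Primitive endoderm markers averaged 5.38 to 5.56 and 5.31 to 5.33, with Lama1 called lower. Trophectoderm markers averaged 6.09 to 6.21 and 6.47 to 6.55, with Krt8, Gata3 and Krt18 called higher and 0 of 8 lower by limma (1 lower at an unadjusted p of 0.05, Eomes, with a log2 change of -0.49); the other 4, Cdx2, Elf5, Tfap2c and Hand1, had log2 changes from -0.05 to 0.06, and the median of the list was 0.06. Of these marker calls, Esrrb lost its own without WT2 (adjusted p = 0.0534) or KO2 (0.0914), Lama1 without KO1 (0.114) or KO2 (0.0684), and Krt18 without any array but WT3 (0.105 to 0.258). The part of other cell types in the sterol results was not tested.

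Cholesterol is made from squalene, which is folded into the first sterol, lanosterol, and then trimmed of methyl groups while its double bonds are moved and reduced. The genes of this route share a control circuit: when membrane sterol is low, the escort protein Scap carries SREBP transcription factors out of the endoplasmic reticulum, and when sterol is plentiful the Insig proteins hold Scap back. SREBPs bind promoters weakly alone and act beside partners, of which NF-Y, a factor that reads a CCAAT box, is the best known. In the embryo the late enzymes matter because their intermediates are toxic or disturb Hedgehog signalling; Nsdhl and Ebp are X-linked genes of human developmental syndromes and Dhcr7 is the gene of Smith-Lemli-Opitz syndrome.

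The promoters are shown because genes with a shared circuit moved in opposite directions. RefSeq windows from 250 bases before to 50 bases after each start (GRCm38.p6, 300 bases in all) were used for 7 of the 8 genes. Stard4, which had the lowest log2 change of the 8, was left out, so its promoter was not examined. Below are the 250 bases before the start of Ebp, the gene that rose, of Dhcr7 and Insig1, which fell, and of Cyp51, which was not called. For Dhcr7 the window shown is the only one of its listed starts that holds a CCAAT box. Capitals mark a CCAAT box on either strand, so that ATTGG is the box read from the other strand. They lie at chrX:8193513-8193762 (minus strand), chr7:143829964-143830213 (plus strand, the third listed start, inside the gene), chr5:28071162-28071411 (plus strand, where the annotated gene Gm35223 also spans the window) and chr5:4104698-4104947 (minus strand).
Ebp: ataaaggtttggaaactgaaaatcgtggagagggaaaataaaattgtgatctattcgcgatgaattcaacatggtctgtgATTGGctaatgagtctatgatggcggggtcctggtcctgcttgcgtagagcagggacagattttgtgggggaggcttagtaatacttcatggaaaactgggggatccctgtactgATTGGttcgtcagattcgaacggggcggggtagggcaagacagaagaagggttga
Dhcr7: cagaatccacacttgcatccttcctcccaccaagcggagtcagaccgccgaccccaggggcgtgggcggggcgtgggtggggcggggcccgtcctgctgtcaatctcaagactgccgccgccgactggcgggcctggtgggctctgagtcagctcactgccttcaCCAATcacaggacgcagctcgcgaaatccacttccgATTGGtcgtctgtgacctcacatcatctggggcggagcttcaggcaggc
Insig1: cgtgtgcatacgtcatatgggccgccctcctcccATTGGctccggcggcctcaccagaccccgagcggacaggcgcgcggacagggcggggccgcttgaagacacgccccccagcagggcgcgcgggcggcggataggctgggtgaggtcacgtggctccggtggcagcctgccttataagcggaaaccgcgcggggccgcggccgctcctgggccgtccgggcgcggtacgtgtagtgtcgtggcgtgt
Cyp51: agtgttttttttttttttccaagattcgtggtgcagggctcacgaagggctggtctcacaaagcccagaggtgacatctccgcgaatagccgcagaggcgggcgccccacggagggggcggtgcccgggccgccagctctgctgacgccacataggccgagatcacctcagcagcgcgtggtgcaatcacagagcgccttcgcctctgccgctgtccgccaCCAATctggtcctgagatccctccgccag

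A CCAAT box was present in the windows of all 7 genes, among them 1 of the 3 windows of Dhcr7, against 37.4% of 32851 windows genome-wide. The Ebp promoter held 2, which begin 170 and 55 bases before the start. A GC box (GGGCGG, the letters read by Sp factors) was also found in all 7 genes, against 35.7% of windows. Neither box was particular to these genes: each was found in 4 of 4 other late enzymes with a window and in 5 of 6 mevalonate genes. Of 8 SREBP control genes, 3 held a CCAAT box and 6 a GC box. An E-box (CACGTG) was found in Hsd17b7, Dhcr7 and Insig1, against 7.15% of windows. For Dhcr7 the E-box lay in the window of the second listed start, which is not shown above. A gene counted if any of its windows held the motif, while the genome-wide shares are of single windows. The sterol regulatory element spelled TCACNCCAC was in 0 of the 7 genes and in 1.24% of windows. Each motif was searched on both strands and none of these letter strings contains another. A match is a description of letters, and the absence of one says only that these letters are not in this window. CCAAT and GC boxes were present in the window of Ebp and in a window of Tm7sf2, Nsdhl, Dhcr7 and Insig1, which fell. For Dhcr7 the CCAAT boxes lay only in the window of the third listed start. No window of Stard4 was used. The part of these boxes in the changes was not tested.

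Of the 8 genes, 5 were lower in Dicer-deficient cells, 1 was higher and 2 were not called at an adjusted p of 0.05 in limma. Over all 19938 genes 8.60% were called lower and 8.48% higher. The 8 genes were chosen with earlier results of these data known, so setting their counts beside these shares is not a test. In bulk RNA, fewer expressing cells and less RNA per cell cannot be told apart. The median log2 change of the 8 genes was -0.37, beside 0.01 over all genes. Both Dicer-deficient signals lay below the wild-type range for the 5 genes called lower, a separation seen for 19.9% of all genes, and above it for Ebp, seen for 20.0%. The count of 5 was not fixed: it was 4 without WT3, 3 without WT1, WT2 or KO1, and 2 without KO2. Tm7sf2 and Stard4 were the 2 genes called lower whichever array was left out.

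**Figure D1:**
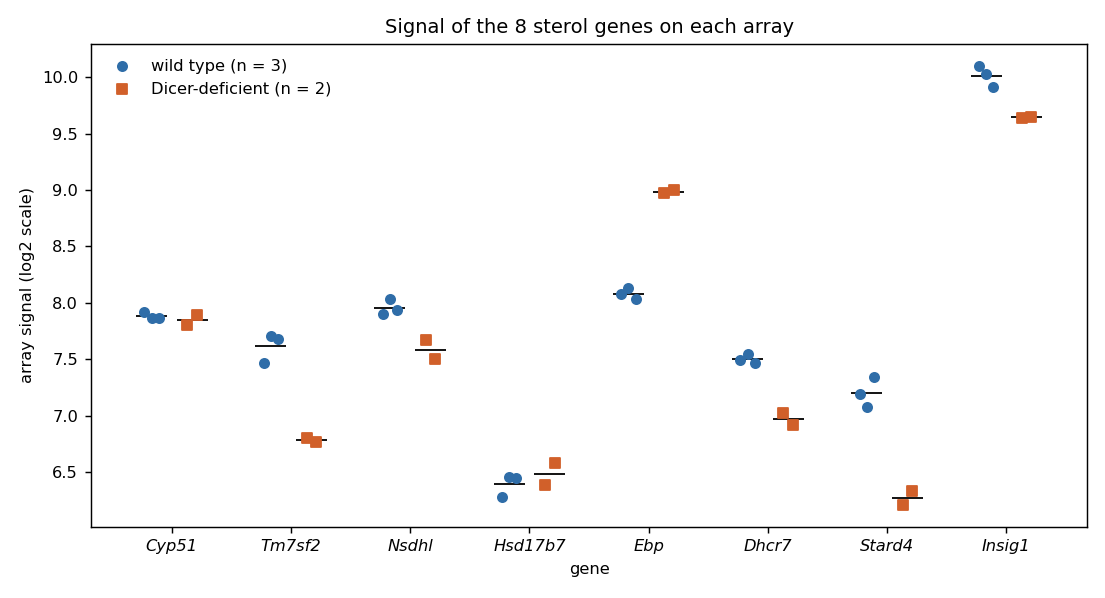
Array signal on a log2 scale (vertical axis) for each of the 8 genes (horizontal axis); circles are 3 wild-type arrays, squares 2 Dicer-deficient arrays and short lines group means. The groups overlap for Cyp51 and Hsd17b7, Ebp is the gene whose Dicer-deficient signals lie above, and the other 5 lie below.

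The first of these enzymes in the route, Cyp51, removes a methyl group from lanosterol. Its signal was 7.92, 7.87 and 7.87 on WT1, WT2 and WT3, and 7.80 and 7.89 on the Dicer-deficient arrays. The groups overlapped. The log2 change was -0.04 with a 95% interval from -0.22 to 0.14 (adjusted p = 0.816).

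Tm7sf2 reduces the double bond that this demethylation leaves behind. It read 7.47, 7.71 and 7.68 in wild-type cells and 6.80 and 6.77 in Dicer-deficient cells. Both Dicer-deficient signals were well under the lowest wild-type one. The level was 1.78-fold lower (log2 change -0.84, SE 0.0955, adjusted p = 0.00121), the 252nd largest fall of all genes. Lbr, a nuclear envelope protein that carries the same reductase activity, had a log2 change of -0.04 (interval from -0.22 to 0.15, adjusted p = 0.856). This change turned to 0.01 after quantile normalization of the deposited values. The difference between the changes of Tm7sf2 and Lbr was not tested.

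Nsdhl and Hsd17b7 act in the complex that strips the next pair of methyl groups, Nsdhl as its dehydrogenase and Hsd17b7 as the ketoreductase. Nsdhl read 7.90, 8.03 and 7.94 in wild-type cells and 7.67 and 7.5 in Dicer-deficient cells. The groups did not overlap, and the log2 change was -0.37 (SE 0.0887, adjusted p = 0.0264), a 1.29-fold lower level. This call did not hold without any 1 of the 5 arrays (adjusted p from 0.0599 without WT3 to 0.178 without KO2). Hsd17b7 read 6.28, 6.46 and 6.45 in wild-type cells and 6.39 and 6.58 in Dicer-deficient cells, so the groups overlapped. Its log2 change was 0.09 (interval from -0.14 to 0.32, adjusted p = 0.667), and it turned to -0.01 without KO2.

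Ebp, the sterol isomerase that moves a ring double bond, was the 1 gene of the 8 that rose. Its signal was 8.08, 8.13 and 8.03 in wild-type cells and 8.97 and 9.0 in Dicer-deficient cells. The spread within either group was small beside the distance between them, with SDs of 0.05 (n = 3) and 0.0212 (n = 2). Ebp was 1.87-fold higher (log2 change 0.91, SE 0.0767, adjusted p = 0.000348), the 383rd largest rise of all genes. The change stayed between 0.88 and 0.93 and kept its call as each array was left out.

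Dhcr7 makes the reduction that ends one branch of the route in cholesterol. Wild-type signals of 7.49, 7.55 and 7.47 stood against 7.02 and 6.92 in Dicer-deficient cells, with no overlap. The level was 1.45-fold lower (log2 change -0.53, SE 0.0789, adjusted p = 0.00363), a call lost without KO2 (log2 change -0.48, adjusted p = 0.0563).

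Stard4, a soluble carrier that shuttles sterol between membranes, had the lowest log2 change of the 8. It read 7.19, 7.08 and 7.34 in wild-type cells and 6.21 and 6.33 in Dicer-deficient cells. Every wild-type signal was above both Dicer-deficient ones. The level was 1.91-fold lower (log2 change -0.93, SE 0.0992, adjusted p = 0.000867), the 195th largest fall of all genes, and it kept its call as each array was left out.

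Insig1, which anchors Scap in the endoplasmic reticulum and is itself an SREBP target, read 10.10, 10.03 and 9.91 in wild-type cells and 9.64 and 9.65 in Dicer-deficient cells. The wild-type signals were all higher. The log2 change was -0.37 (SE 0.0856, adjusted p = 0.0239), a 1.29-fold lower level. The call was kept without WT3 (adjusted p = 0.0215) and lost without WT1 (0.0733), WT2 (0.1), KO1 (0.159) or KO2 (0.144).

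Within groups the 8 genes varied about as much as genes at large. Their wild-type SDs ran from 0.0289 to 0.131 with a median of 0.0813, beside a median of 0.0985 over all genes. The gap between the Dicer-deficient arrays ran from 0.01 to 0.19 with a median of 0.095, beside 0.1 over all genes. On WT2, 6 of the 8 genes lay above their group mean, with a median deviation of 0.05, and on the other 4 arrays the median deviation lay between -0.02 and 0.01.

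In pathway order Tm7sf2, Msmo1 and Nsdhl, singled out after their values were seen, were called lower, while Ebp, further along, was higher. Lbr, which shares the step of Tm7sf2, was not called (log2 change -0.04). Hsd17b7, which acts between Nsdhl and Ebp, was not called either (log2 change 0.09). The Nsdhl call was lost whichever array was left out. Of the 12 listed enzymes from squalene onward 11 were measured, of which 5 were called lower, 1 higher and 5 not called, with a median log2 change of -0.09. Besides the 6 enzymes above, Lss, which closes squalene epoxide into lanosterol, was 1.51-fold lower (log2 change -0.59, adjusted p = 0.0127), and its call was lost without WT1 (0.0644), WT2 (0.0785) or KO1 (0.0894). Msmo1, the oxidase that begins the removal of the paired methyl groups ahead of Nsdhl, was 1.39-fold lower (log2 change -0.48, adjusted p = 0.00633; 0.0824 and 0.0608 without KO1 and KO2). Sqle, the epoxidase that starts the route, read 9.12, 9.10 and 9.11 in wild-type cells and 9.29 and 9.46 in Dicer-deficient cells. Its log2 change of 0.26 had an adjusted p of 0.0709, which became 0.0386 after quantile normalization of the deposited values and 0.041 with array weights. Sc5d, the desaturase before Dhcr7, had a log2 change of -0.09 (interval from -0.34 to 0.16, adjusted p = 0.707), which turned to 0.02 without KO1.

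**Figure D2:**
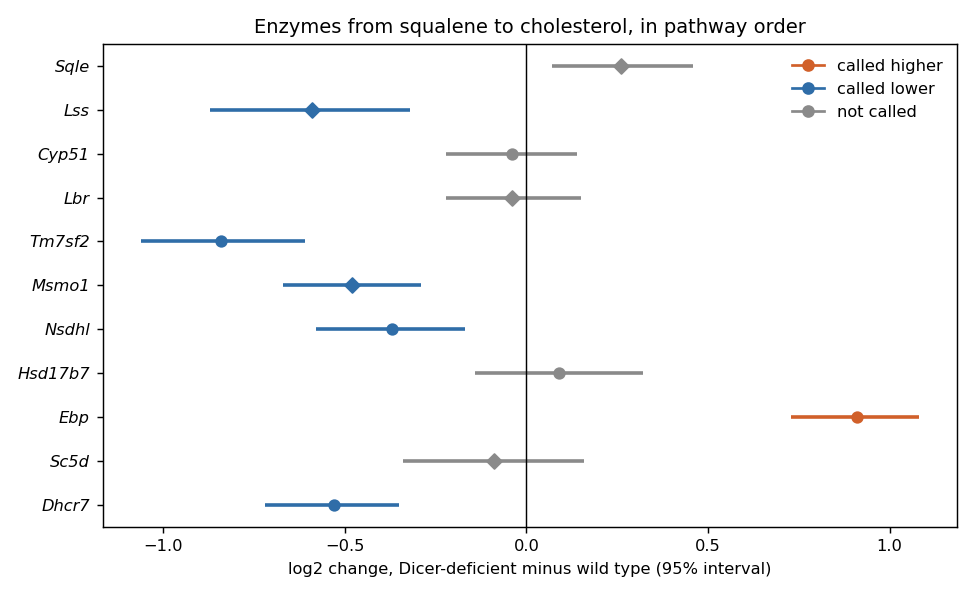
Log2 change, Dicer-deficient minus wild type (horizontal axis), with limma's 95% interval for the 11 measured enzymes from squalene onward (vertical axis, pathway order from the top); circles are the 6 enzymes among the 8 genes and diamonds the other 5. Tm7sf2 at -0.84 and Ebp at 0.91 are the ends of the range.

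Upstream of squalene the picture was also mixed. Of 7 measured genes of the mevalonate route, 2 were called lower and 1 higher, with a median log2 change of -0.16. Fdft1, squalene synthase, was 1.77-fold lower (log2 change -0.82, adjusted p = 0.000942). Fdft1 lies on chromosome 14, where 19.7% of genes were called lower and 5.87% higher; the part of its chromosome in this fall was not tested. Pmvk, a mevalonate pathway kinase, was 1.34-fold lower (adjusted p = 0.0141), with adjusted p = 0.071 without WT2 and 0.127 and 0.11 without KO1 and KO2. Hmgcs1, which makes the precursor of mevalonate, was 1.38-fold higher (log2 change 0.47, adjusted p = 0.0114; 0.054 without WT2, and 0.0512 and 0.105 without KO1 and KO2). The promoter window of Hmgcs1 held the sterol regulatory element TCACNCCAC, the 1 match among 6 genes of this list with a window.

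Among 8 measured genes of the SREBP control circuit, 2 were called higher and 1 lower, with a median log2 change of 0.15. The lower one was Insig2, the paralog of Insig1, which read 7.39, 7.46 and 7.42 in wild-type cells and 6.96 and 6.95 in Dicer-deficient cells. Insig2 was 1.38-fold lower (log2 change -0.47, adjusted p = 0.00495; 0.0572 and 0.0585 without KO1 and KO2). Both Insig genes thus had lower signals on both Dicer-deficient arrays than on any wild-type array, a separation seen for 19.9% of all genes. Scap was 1.28-fold higher (log2 change 0.35, adjusted p = 0.0212), a call lost without WT2 (0.0889), KO1 (0.131) or KO2 (0.125). Pgrmc1, a membrane haem protein that binds the Insig and Scap complex and Cyp51, was 1.5-fold higher (log2 change 0.59, adjusted p = 0.0027), with 0.051 without KO1. The transcription factor genes did not pass: Srebf2 had a log2 change of -0.18 (interval from -0.36 to 0, adjusted p = 0.17) and Srebf1 -0.11 (interval from -0.31 to 0.08, adjusted p = 0.469).

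Sterol uptake and transport genes were split evenly, with 3 of 13 called higher, 3 called lower and a median log2 change of -0.03. Gramd1a and Gramd1b, which carry sterol from the plasma membrane to the endoplasmic reticulum, moved apart. Gramd1a was 1.97-fold lower (log2 change -0.98, adjusted p = 0.000367), while Gramd1b was 1.77-fold higher (log2 change 0.82, adjusted p = 0.00694; 0.138 and 0.118 without KO1 and KO2). Stard5, a carrier of the same family as Stard4, was 1.54-fold lower (log2 change -0.62, adjusted p = 0.0288). Stard5 kept its call without KO1 and lost it without any other 1 array (adjusted p from 0.0908 to 0.155), with a log2 change of -0.35 without KO2. Lrp2, a large endocytic receptor of the lipoprotein receptor family, was 2.23-fold higher (log2 change 1.16, adjusted p = 0.00185; 0.0574 and 0.0752 without KO1 and KO2).

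Of 7 genes of sterol export and storage, 1 was called higher and 0 lower by limma (1 lower at an unadjusted p of 0.05). The gene called higher was Abca1, the exporter that loads cholesterol onto lipoprotein, with a log2 change of 0.48 (adjusted p = 0.0149). Its call was lost without WT1 (0.0667), KO1 (0.159) or KO2 (0.0729). Among 8 fatty acid synthesis genes, which SREBPs also drive, 3 were called lower and 1 higher, with a median of -0.26. The desaturases Scd1 and Scd2 were 1.99-fold and 1.5-fold lower (adjusted p = 0.000664 and 0.00208) and kept their calls as each array was left out. Fads1, another desaturase, was 1.30-fold lower (log2 change -0.38, adjusted p = 0.0358) and Acly, which supplies acetyl units, 1.22-fold higher (adjusted p = 0.049). Fads1 kept its call without KO1 and lost it without each other array (adjusted p from 0.0843 to 0.176), with a log2 change of -0.24 without KO2. Acly kept its call without WT3 and lost it without each other array (adjusted p from 0.117 to 0.214).

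**Figure D3:**
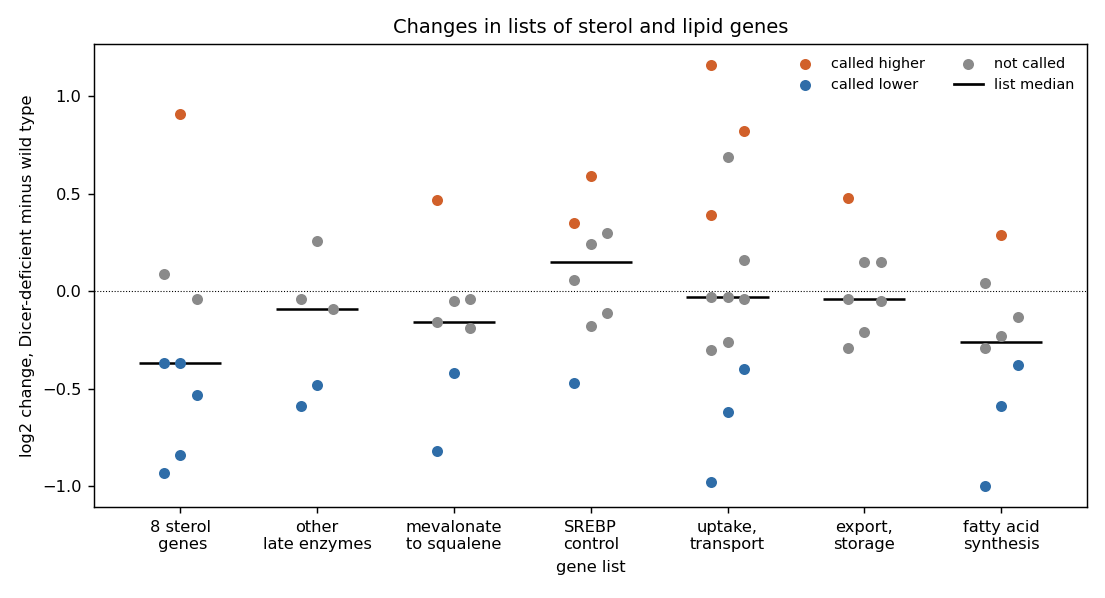
Log2 change, Dicer-deficient minus wild type (vertical axis), of each measured gene in 7 lists of sterol and lipid genes (horizontal axis); colours give limma's call and black lines the list medians. The medians run from -0.37 for the 8 sterol genes to 0.15 for the SREBP control genes, and every list but the other late enzymes and the export genes holds calls in both directions.

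The 8 genes lie on 6 chromosomes, with Ebp and Nsdhl, which moved in opposite directions, both on X. Of 739 measured genes on X, 9.61% were called higher and 7.98% lower, with a median log2 change of 0.02. Among the 10 measured genes on each side of each sterol gene, the median log2 change lay between -0.05 and 0.07. The number of these 20 genes called by limma varied, where 8.48% of all genes were called higher and 8.60% lower. Around Cyp51 there were 3 higher and 4 lower, around Stard4 4 and 2, around Hsd17b7 3 and 1, around Dhcr7 1 and 3, and around Ebp 2 and 1. Around Tm7sf2 there were 0 higher and 1 lower, around Insig1 1 and 0, and around Nsdhl 0 and 0 (4, 2 and 2 genes at an unadjusted p of 0.05). The 3 called genes around Ebp, all singled out after their values were seen, were Tbc1d25, Rbm3 (log2 change 0.39, adjusted p = 0.0216) and Hdac6 (log2 change -0.31, adjusted p = 0.0494). Rbm3 kept its call without WT1 and Hdac6 without WT3, and both lost it without each other array (adjusted p from 0.0567 to 0.177 and from 0.137 to 0.223). Tbc1d25, a regulator of Rab GTPases and the next measured gene to Ebp on X, read 7.85, 7.85 and 7.57 in wild-type cells and 8.73 and 8.93 in Dicer-deficient cells. Its log2 change was 1.07 (SE 0.115, adjusted p = 0.000903). Porcn, on the other side of Ebp, had a log2 change of 0.37 (SE 0.158, adjusted p = 0.175), and over the 20 genes around Ebp the median was 0.01.

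**Figure D4:**
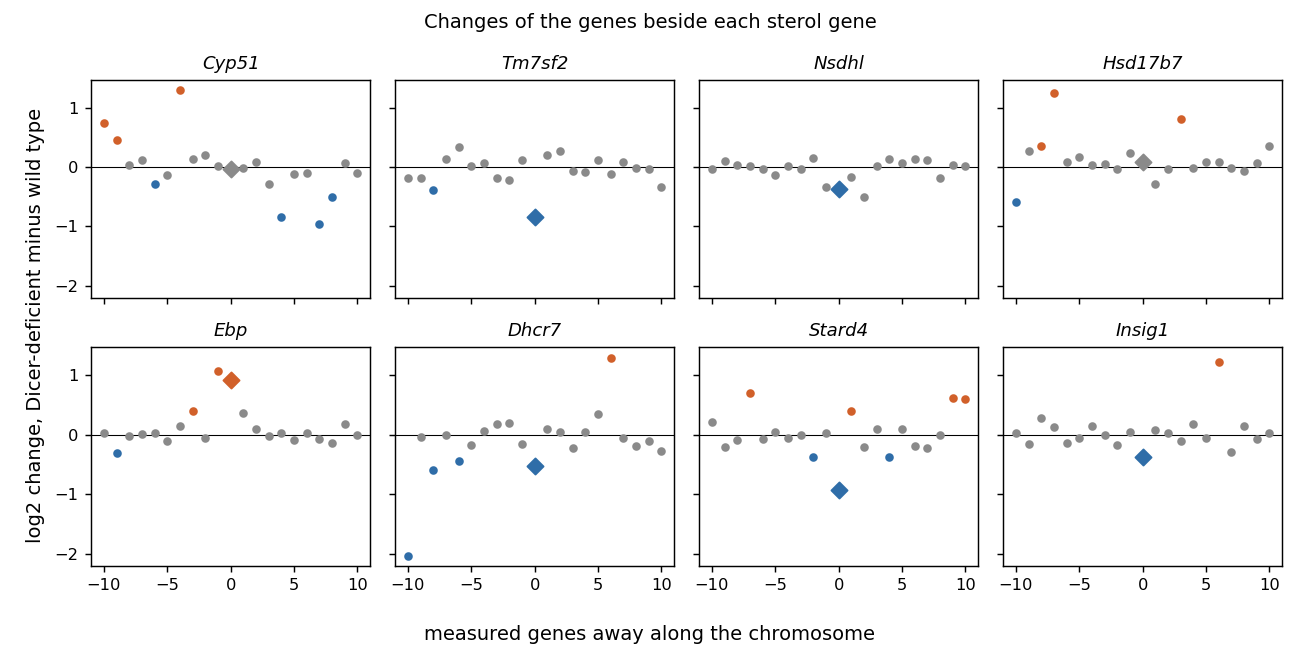
Log2 change, Dicer-deficient minus wild type (vertical axis), of up to 10 measured genes on each side of each of the 8 sterol genes, by the number of genes away (horizontal axis); diamonds are the sterol genes, and orange, blue and grey stand for called higher, called lower and not called. Tbc1d25, next to Ebp, is at 1.07 beside Ebp at 0.91.

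The genes whose profiles over the 5 arrays lay closest to those of Ebp and Stard4 were found by the root mean square difference of gene-centred log2 signals. For Ebp these were Lrig1, a membrane protein that restrains growth factor receptors, at 0.0102, Cnot6, a deadenylase of messenger RNA, at 0.0329, and Col18a1, a basement membrane collagen, at 0.0382. Their log2 changes were 0.90, 0.90 and 0.84. For Stard4 they were Ero1a, the oxidase of disulfide formation in the endoplasmic reticulum, at 0.0306, Pkp2, a desmosome protein, at 0.0537, and Mdp1, a phosphatase, at 0.056, with log2 changes of -0.88, -1.0 and -0.99. Ero1a and Mdp1 lie on chromosome 14, where 19.7% of genes were called lower and 5.87% higher. The part of their chromosome in these falls was not tested. Each profile is 5 values in 2 groups, and genes with a like difference between the groups score as near.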

How the data were processed

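The authors deposited 1 table of normalized log2 signals for 35556 probe sets on 5 Affymetrix arrays. Background correction, probe summary, normalization and log base are not given in the sources used here. The values were read as log2 because they are positive and span the range of scanner intensities on that scale; another base would rescale every change and fold.

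Probe sets with 1 symbol in the platform annotation (21789 of 35556) gave 19938 genes, each by its probe set of highest mean. The fit was limma's lmFit and eBayes, Dicer-deficient minus wild type, over all genes, with Benjamini-Hochberg adjustment at 0.05 (R 4.3.3, limma 3.58.1; Python 3.11.15, pandas 2.3.3, matplotlib 3.10.9), tested on simulated data. SDs are between arrays, and SEs and 95% intervals are limma's. An exact permutation of 3 against 2 arrays cannot go below p = 0.1, so none is given.

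The members and lists were chosen with earlier results of these data known. Named are the members, called genes of the late, mevalonate and SREBP lists, the other measured late enzymes, Srebf1 and Srebf2, up to 4 called genes of each other list, called markers and 3 nearest profiles each for the largest rise and fall among the members. Listed genes without a probe set of their own were not analysed here, and the planned comparison of protein sequences was not run. Alternatives were quantile normalization of the deposited values, median centring, no dim genes, 3 variance settings, a replicate block, other probe set rules and leaving out each array.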

Additional observations from a re-analysis of the deposited data

How the results depend on the processing

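Of the 46 genes followed through the alternatives, 39 were called, and 18 of these kept the call whichever array was left out. No call among the 46 changed when dim genes were dropped, the prior followed intensity or probe sets of a gene were averaged. Centring arrays on their medians ended 1, Hdac6, and robust moderation 2, Acly and Hdac6. Quantile normalization ended 1, Fads1, and added 1, Sqle, which array weights also added. Testing all probe sets ended 11 of the calls, and the replicate block ended 21. Over all genes 3404 were called. With all probe sets tested 1958 were called, 3 of the 8 sterol genes among them as lower (Nsdhl with adjusted p = 0.0733 and Insig1 with 0.0662 were lost). With the replicate block, which leaves 1 residual degree of freedom, 894 genes were called, and 1 of the 8 was lower, Stard4. Same-numbered arrays had correlations of deviations of 0.05 and 0.01, and nothing in the labels says that they pair. Leaving out each array gave 973 to 2956 genes called, 2 to 4 of the 8 lower, and 1 higher throughout. Signs turned for Lbr (0.01 with quantile normalization), Sc5d (0.02 without KO1, -0.2 without KO2) and Hsd17b7 (-0.01 without KO2, 0.18 without KO1), none of which was called. Ebp was called higher under all 9 other alternatives, with changes from 0.88 to 0.93. Signal over background was not analysed here.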
